A study of Rattus norvegicus with 10 samples.

Results

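The Z-disc is the plate that borders each sarcomere, the contractile unit of heart muscle, and anchors the thin filaments. The genes described here are 10 that encode Z-disc and Xin-repeat proteins, chosen by name from 39784 gene names: Actn2, Nebl, Tcap, Myoz2, Csrp3, Ldb3, Nexn, Synpo2l, Xirp1 and Xirp2. Alpha-actinin cross-links the actin filaments of neighbouring sarcomeres at the Z-disc, and most other Z-disc proteins bind it, actin or titin. Several of them also bind signalling enzymes. Xin-repeat proteins bind actin through repeated short motifs, and in the heart they lie at the intercalated discs, where cardiomyocytes join.

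RNA was sequenced from cardiomyocytes of newborn rat hearts, of wild-type genotype, that overexpressed either of 2 forms of the transcriptional coactivator YAP. YAP5SA, delivered as Ad-Xon-YAP5SA, is an active form that lacks inhibitory phosphorylation sites, and YAP5SA-S94A, delivered as Ad-Xon-YAP5SA-S94A, carries the same changes and one more, which disrupts its binding to the TEAD transcription factors. There were 2 libraries per form. All were cultured in M199 medium with serum. CUT&RUN samples of the same series, 6 in number, were not used here. No library of GFP-expressing or untreated cells was among the 4 RNA libraries, so a difference between the 2 forms leaves unsaid which one departs from plain cardiomyocytes. The labels call the libraries biological replicates without saying that they came from separate isolations, and the p-values then measure only the spread between these libraries. Relabelling the 4 libraries allows no two-sided p smaller than 0.333, and calls therefore rest on limma, which pools the spread over all genes.

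Levels are in TPM, a length-corrected share of all transcripts. Aligned bases came to 5.10 and 4.02 gigabases for YAP5SA, against 5.02 and 4.97 gigabases for YAP5SA-S94A. Coverage of the 10 genes lay between 42.0 and 1739 reads per base. The mitochondrial chromosome held 7.53% and 10.2% of all TPM with YAP5SA, against 12.6% and 14.0% with YAP5SA-S94A. Cardiomyocyte marker genes were abundant in every library. Of 10 such markers outside the gene set, 7 fell and 1 rose, and they summed to 17570 TPM in each YAP5SA library, against 22660 and 22430 in the YAP5SA-S94A libraries. In bulk RNA, fewer cells of a type and less RNA per cell cannot be told apart. Among markers of other cells, 4 of 6 tested epicardial genes rose and none fell, with sums of 94.7 and 81.3 TPM against 31.1 and 31.4. Fibroblast markers moved both ways (1 of 10 rose, 2 fell; sums 9725 and 7776 against 7627 and 7286 TPM). Smooth muscle and pericyte markers (1 of 8 rose) summed to 330 and 292 against 242 and 257 TPM. Endothelial markers (1 of 6 rose, 1 fell) summed to 27.8 and 29.3 against 38.5 and 38.8 TPM, and leukocyte markers (1 of 6 rose, 2 fell) to 127 and 115 against 133 and 134 TPM. Skeletal muscle markers (2 of 4 tested rose, 1 fell) summed to 314 and 246 against 1067 and 985 TPM. That sum is carried by Ckm, muscle creatine kinase, at 281 and 214 against 1064 and 982 TPM. Myh1 (10.2 and 10.3 TPM in YAP5SA) and Myh2 (20.2 and 20.6 TPM) were the genes that rose, and Myod1, the defining regulator, was listed at 0 in every library. The part of these shifts in the results below was not tested.

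All 10 genes were expressed well above the cutoff for testing (a mean of 1 TPM), and they moved in different directions. Synpo2l, Xirp1 and Csrp3 rose in YAP5SA, and Nebl fell. The other 6 (Actn2, Myoz2, Ldb3, Tcap, Nexn and Xirp2) did not pass the test. Rose and fell mean here a limma adjusted p under 0.05, taken over all 13420 genes tested. A fit with a library left out takes the spread of a gene from the pair of the other form and from the pooled spread. Calls gained or lost in such a fit can therefore follow that spread and not the size of the difference. Of all genes tested 17.4% rose and 15.5% fell, 32.9% in all, beside 40.0% of the 10. Fold changes are differences of mean log2(TPM + 1), YAP5SA less YAP5SA-S94A. Their median was 0.081 over the 10 and 0.0 over all genes tested. In 7 of the 10 the groups did not overlap, as in 68.2% of all genes tested. Together the 10 transcripts summed to 3090 and 3089 TPM in YAP5SA and 2813 and 2876 TPM in YAP5SA-S94A.

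**Figure D1:**
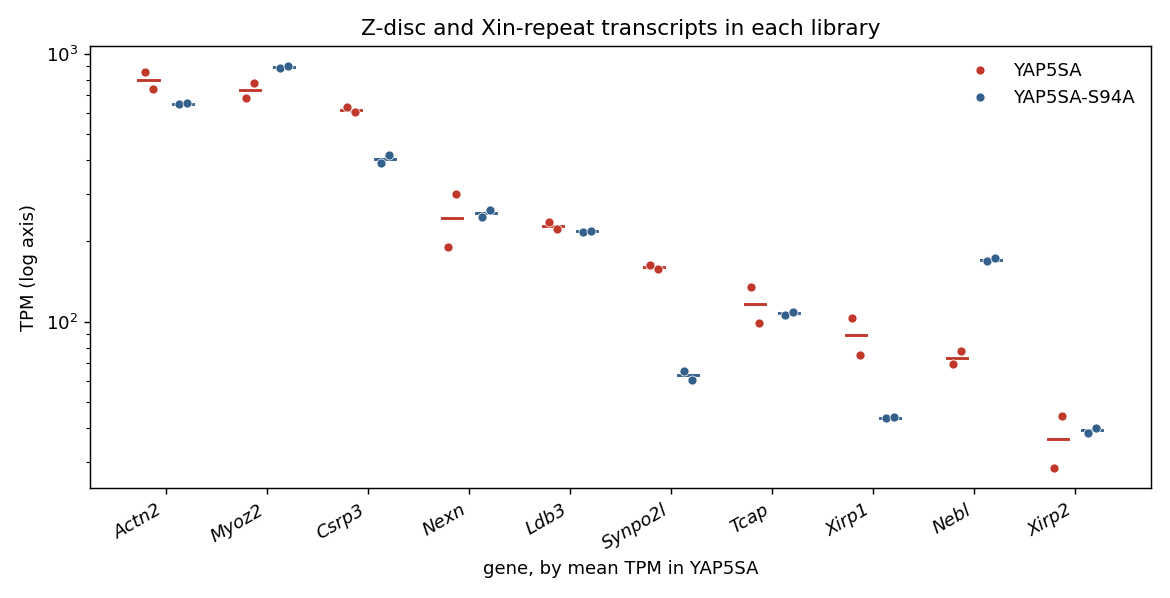
TPM of each gene (log axis) in the YAP5SA libraries (red, left of each pair) and the YAP5SA-S94A libraries (blue, right); points are libraries and bars are group means, n = 2 per group. Synpo2l, Xirp1 and Csrp3 lie higher in both YAP5SA libraries, Nebl lies lower, and the YAP5SA points of Nexn and Xirp2 lie on either side of the YAP5SA-S94A points.

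The levels of the 10 genes spanned a wide range. In YAP5SA, Actn2 (737 and 851 TPM) and Myoz2 (682 and 776 TPM) overlapped at the top, with Csrp3 (604 and 634 TPM) next. Nexn and Ldb3 overlapped in the middle. Synpo2l followed, then Tcap, Xirp1 and Nebl, of which Xirp1 overlapped both of its neighbours. Xirp2 was the lowest. In YAP5SA-S94A, Myoz2 (886 and 899 TPM) stood above Actn2 (651 and 652 TPM), and no neighbours in the order overlapped. Nebl held rank 6 of the 10 there and rank 9 in YAP5SA, whereas Synpo2l held rank 8 and rank 6 in YAP5SA.

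The backbone of the Z-disc was described by Actn2, Nebl and Tcap. Actn2 encodes sarcomeric alpha-actinin (chromosome 17, 58143334 to 58210622, rn7). It stood at 851 and 737 TPM in YAP5SA replicates 1 and 2 and at 651 and 652 TPM in YAP5SA-S94A. Both YAP5SA libraries were higher, but the difference did not pass the test (log2 fold change 0.28, SE 0.10, 95% interval 0.05 to 0.52 before adjustment, limma adjusted p = 0.067). Leaving out YAP5SA replicate 2 gave 0.39, and a block on replicate number made the difference pass (limma adjusted p = 0.028).

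Nebl encodes nebulette, a cardiac nebulin-family protein that runs from the Z-disc along the thin filament, and from other promoters the short LIM and SH3 protein Lasp-2 (chromosome 17, 80113891 to 80466331). The deposited row joins both products. It stood at 69.6 and 77.4 TPM in YAP5SA and at 169 and 172 TPM in YAP5SA-S94A. The groups lay far apart beside the gap within either. The log2 fold change was −1.20 (SE 0.10, limma adjusted p = 0.000199), and 3.05% of tested genes had a lower one. As a share of the summed cardiomyocyte markers, Nebl stood at 0.396% and 0.441% in YAP5SA against 0.744% and 0.768% in YAP5SA-S94A. That sum is carried mostly by Tnnt2, which fell, and Actc1, which rose. Some single markers fell as far as Nebl or further, with log2 fold changes of −1.73 for Myh6, −1.55 for Tnni3 and −1.21 for Mybpc3. Pln fell slightly less than Nebl (−1.16), and the other markers fell by less still or rose.

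Tcap encodes telethonin, which joins the ends of titin molecules in the Z-disc (chromosome 10, 83381719 to 83382887). Its levels were 134 and 98.7 TPM in YAP5SA and 106 and 109 TPM in YAP5SA-S94A. The YAP5SA libraries lay on either side of the others, and the groups overlapped (log2 fold change 0.097, 95% interval −0.25 to 0.45, limma adjusted p = 0.66). Leaving out YAP5SA replicate 1 turned its sign (−0.12), and leaving out replicate 2 gave 0.32.

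The proteins that tie alpha-actinin to signalling and to LIM partners were Myoz2, Csrp3 and Ldb3. Csrp3, the muscle LIM protein (chromosome 1, 98528067 to 98546647), stood at 634 and 604 TPM in YAP5SA and at 390 and 418 TPM in YAP5SA-S94A. Every YAP5SA value exceeded every YAP5SA-S94A value, by more than the gap within either group. The log2 fold change was 0.61 (SE 0.09) with a limma adjusted p = 0.00218, and the mean was 1.53-fold that in YAP5SA-S94A.

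Myoz2, which encodes calsarcin-1, a protein that binds alpha-actinin and the phosphatase calcineurin (chromosome 2, 211141463 to 211168187), went the other way without passing the test. It stood at 682 and 776 TPM in YAP5SA and at 886 and 899 TPM in YAP5SA-S94A. Both YAP5SA values were lower, and the log2 fold change was −0.29 (SE 0.10, 95% interval −0.52 to −0.07 before adjustment, limma adjusted p = 0.053). With the mitochondrial chromosome left out it passed (−0.37, limma adjusted p = 0.0208), as it did in 5 other settings.

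Ldb3 encodes Cypher, also called ZASP, which binds alpha-actinin through its PDZ domain (chromosome 16, 9855768 to 9920108). It varied little, at 235 and 221 TPM in YAP5SA and 217 and 219 TPM in YAP5SA-S94A. The difference was small (log2 fold change 0.06, 95% interval −0.15 to 0.28, limma adjusted p = 0.619), and its sign changed with quantile normalization (−0.020).

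**Figure D2:**
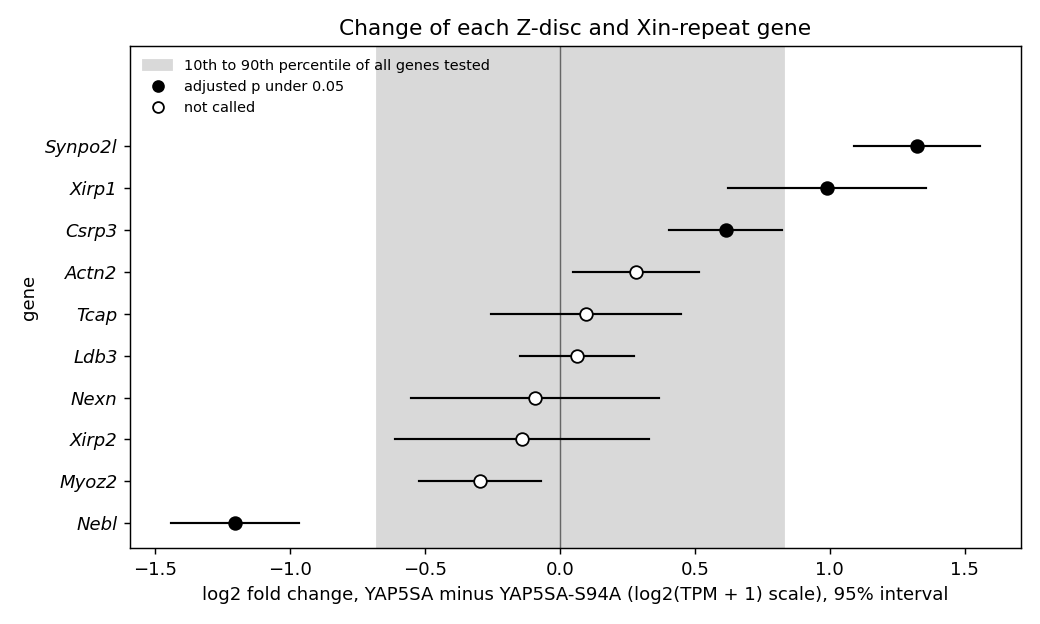
Log2 fold change of each gene, the difference of mean log2(TPM + 1) between YAP5SA and YAP5SA-S94A, with its 95% interval before adjustment; filled points passed the test and the grey band spans the 10th to 90th percentile of all genes tested (−0.68 to 0.83). Synpo2l and Xirp1 lie above the band, Nebl lies below it, and Csrp3 lies within it although it passed.

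The actin-binding proteins Synpo2l and Nexn differed from each other. Synpo2l, which encodes the heart-enriched synaptopodin relative CHAP at the Z-disc (chromosome 15, 3631974 to 3641429), stood at 162 and 157 TPM in YAP5SA and at 65.7 and 60.7 TPM in YAP5SA-S94A. The libraries of each form lay close together and far from those of the other. Its log2 fold change of 1.32 (SE 0.10, limma adjusted p = 0.000117) was the highest of the 10, and 95.1% of tested genes had a lower one.

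Nexn encodes nexilin, which binds actin filaments at the Z-disc (chromosome 2, 241186783 to 241218315). It stood at 190 and 299 TPM in YAP5SA, the lowest and the highest of the 4 values, and at 247 and 262 TPM in YAP5SA-S94A. The log2 fold change was −0.09 (95% interval −0.55 to 0.37, limma adjusted p = 0.753), and its sign turned without YAP5SA replicate 1 (0.23). Without YAP5SA replicate 2 it was −0.42.

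The pair of Xin genes did not move together. Xirp1, which encodes Xin (chromosome 8, 119744778 to 119757547), stood at 103 and 75.2 TPM in YAP5SA and at 43.6 and 44.1 TPM in YAP5SA-S94A. Both YAP5SA libraries were higher, by 2.03-fold on average, although they also differed from each other (log2 fold change 0.99, SE 0.16, limma adjusted p = 0.00307). Leaving out YAP5SA replicate 1 gave 0.77 and leaving out replicate 2 gave 1.21.

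Xirp2, the larger relative of Xin (chromosome 3, 52126213 to 52213094), stood at 28.4 and 44.5 TPM in YAP5SA and at 38.5 and 40.1 TPM in YAP5SA-S94A. The groups overlapped, and the log2 fold change was −0.14 (95% interval −0.61 to 0.33, limma adjusted p = 0.632). It was 0.17 without YAP5SA replicate 1 and −0.45 without replicate 2.

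Within a library, Xirp1 stood at 3.63 and 1.69 times the level of Xirp2 in YAP5SA, against 1.13 and 1.10 times in YAP5SA-S94A. The ratio was higher in both YAP5SA libraries, but its exact permutation test reached only the smallest p the design allows (two-sided p = 0.333). In YAP5SA replicate 1 Xirp1 was the higher of the 2 replicates and Xirp2 the lower, so the ratio varied most within YAP5SA.

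That split was shared by other genes of the set. Between the YAP5SA replicates, Xirp2 and Nexn differed by 0.63 and 0.65 on the log2 scale, replicate 2 being higher, and 92.9% and 93.6% of tested genes had smaller gaps. Xirp1 and Tcap differed by −0.45 and −0.44, replicate 1 being higher, and 83.2% and 82.4% of tested genes had smaller gaps. Synpo2l (−0.05) and Csrp3 (−0.07) barely differed between these replicates. Between the YAP5SA-S94A replicates, no gene of the 10 differed by more than the 0.11 of Synpo2l, and 49.9% of tested genes had smaller gaps there. Between the YAP5SA replicates, 49.4% of tested genes had smaller gaps than Actn2 (−0.21). Gaps were thus wider between the YAP5SA replicates over all genes tested, and not only in this set.

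Promoter sequence was available for 8 of the 10 genes, in 10 windows, from RefSeq in the later build GRCr8. The 250 bases before the annotated start were searched on both strands for the TEAD core GGAATG, the AP-1 site TGANTCA, the MEF2 consensus and the CArG box bound by SRF. MEF2 and SRF are factors of muscle gene transcription, and AP-1 factors often bind near TEAD. The motifs were chosen after the values had been seen. Matches to these motifs did not overlap one another in these windows. Of the 8 genes, 4 hold a MEF2 match and 1 a TEAD match, and a window of each is printed here 5′ to 3′ with the matches in capitals. Xirp1 has 3 windows. The one shown overlaps another that holds the same matches, and the remaining one holds none.
Xirp1 (chr8:128635012-128635261, minus strand): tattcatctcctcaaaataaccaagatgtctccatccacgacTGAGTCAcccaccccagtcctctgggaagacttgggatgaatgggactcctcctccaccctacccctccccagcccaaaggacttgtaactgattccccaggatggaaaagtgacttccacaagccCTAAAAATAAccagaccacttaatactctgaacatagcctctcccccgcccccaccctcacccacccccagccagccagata
Xirp2 (chr3:72533936-72534185, plus strand): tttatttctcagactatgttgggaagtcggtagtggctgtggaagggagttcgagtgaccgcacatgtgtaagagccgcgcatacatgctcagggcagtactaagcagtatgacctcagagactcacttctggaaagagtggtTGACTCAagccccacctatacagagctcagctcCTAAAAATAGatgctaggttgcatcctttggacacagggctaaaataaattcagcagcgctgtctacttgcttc
Synpo2l (chr15:3684760-3685009, plus strand): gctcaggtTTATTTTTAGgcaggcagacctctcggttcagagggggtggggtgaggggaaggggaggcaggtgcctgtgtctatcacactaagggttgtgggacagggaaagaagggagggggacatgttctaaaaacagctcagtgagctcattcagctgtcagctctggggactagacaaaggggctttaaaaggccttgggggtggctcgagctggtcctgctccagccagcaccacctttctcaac
Myoz2 (chr2:213852779-213853028, minus strand): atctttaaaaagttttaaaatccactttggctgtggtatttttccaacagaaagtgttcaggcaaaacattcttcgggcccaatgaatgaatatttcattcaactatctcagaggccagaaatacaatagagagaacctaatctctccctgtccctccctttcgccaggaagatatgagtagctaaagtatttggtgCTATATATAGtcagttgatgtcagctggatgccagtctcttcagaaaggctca
Nexn (chr2:243878153-243878402, minus strand): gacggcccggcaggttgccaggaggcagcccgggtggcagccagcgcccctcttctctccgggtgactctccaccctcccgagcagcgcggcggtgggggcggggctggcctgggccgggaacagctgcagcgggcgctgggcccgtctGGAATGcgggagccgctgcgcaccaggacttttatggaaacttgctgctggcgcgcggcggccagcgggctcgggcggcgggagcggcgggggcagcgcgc
In Xirp1 the capitals mark an AP-1 match and then a MEF2 match, which begin 208 and 82 bases before the start. Xirp2 holds the same pair in the same order, beginning 107 and 74 bases before the start. The capitals mark a MEF2 match in Synpo2l, whose window lies 3786 bases inside the outermost gene end, and in Myoz2, and the TEAD core in Nexn. Of 33469 promoter windows of this length, 2.96% hold a MEF2 match, 6.34% an AP-1 match, 1.5% a CArG match and 12.1% a TEAD match. These percentages count windows and not genes, and a gene may have several, so they are not directly comparable with the counts of genes above. Ldb3 holds an AP-1 and a CArG match. The window listed for Nebl, which holds a CArG match, lies 239552 bases inside the outermost gene end. Of the 4 genes with a MEF2 match, Xirp1 and Synpo2l rose, while Xirp2 and Myoz2 did not pass the test. A match is a stretch of letters and no evidence of binding.

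Most of these genes belong to families that also hold broadly expressed relatives, and several of those rose. The list of paralogs holds 18 genes, of which 15 were tested, 8 rose and 1 fell, with a median log2 fold change of 0.41. Reads of close paralogs cannot be divided with certainty. Among the alpha-actinins, Actn1 stood at 387 and 354 TPM in YAP5SA against 118 and 112 TPM in YAP5SA-S94A (log2 fold change 1.67), and Actn4 at 572 and 488 against 175 and 160 TPM (1.65). Both are the non-muscle forms, found at stress fibres and adhesions. Actn2 therefore made up 47.0% and 46.7% of alpha-actinin TPM in YAP5SA, against 68.9% and 70.6% in YAP5SA-S94A. The share was lower in both YAP5SA libraries while the Actn2 level itself was not. The skeletal form Actn3 was at 0.23 TPM or below in every library.

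In the nebulin family, Nebl fell and Lasp1, a widely expressed LIM and SH3 protein gene, rose (159 and 139 TPM in YAP5SA against 93.1 and 98.3 TPM in YAP5SA-S94A, log2 fold change 0.63). Nrap, the nebulin relative found in forming myofibrils and at intercalated discs, stood at 67.9 and 71.3 TPM in YAP5SA against 73.7 and 75.3 TPM in YAP5SA-S94A and did not pass (limma adjusted p = 0.501). Nebl made up 23.5% and 26.9% of the family's TPM in YAP5SA, against 50.2% and 49.8% in YAP5SA-S94A. Skeletal nebulin, Neb, was at 0.113 TPM or below.

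The cysteine-rich LIM family shifted the other way. Csrp3 rose while Csrp2, a smooth muscle form, fell (173 and 158 TPM in YAP5SA against 226 and 221 TPM in YAP5SA-S94A, log2 fold change −0.43, limma adjusted p = 0.0118). That call was lost without YAP5SA-S94A replicate 1 (log2 fold change −0.42) or 2 (−0.45), although the difference itself hardly moved. It was also lost without the intensity trend of the variance model (limma adjusted p = 0.0556). Csrp1 did not pass (344 ± 25.4 against 380 ± 10.7 TPM, SD, n = 2 each). Csrp3 made up 54.3% and 55.5% of the family's TPM in YAP5SA, against 38.9% and 41.4% in YAP5SA-S94A.

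Synpo2l rose without its relatives passing the test. Synpo2, which encodes myopodin, stood at 97.9 and 83.7 TPM in YAP5SA against 93.0 and 96.2 TPM in YAP5SA-S94A, and the sign of its difference turned without YAP5SA replicate 2 (0.049). Synpo, synaptopodin itself, stood at 79.1 and 62.5 against 58.3 and 57.3 TPM. Its log2 fold change of 0.28 did not pass (limma adjusted p = 0.155), and it was 0.445 without YAP5SA replicate 2. Synpo2l held 47.8% and 51.8% of synaptopodin-family TPM in YAP5SA, against 30.3% and 28.3% in YAP5SA-S94A.

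Ldb3 did not pass the test while 5 of 6 PDZ-LIM relatives rose. Pdlim2 had the largest difference of these (71.8 and 56.9 TPM in YAP5SA against 16.4 and 14.8 TPM in YAP5SA-S94A, log2 fold change 1.97). Pdlim1, Pdlim3, Pdlim5 and Pdlim7 rose by 0.65, 0.69, 0.41 and 0.55. Pdlim4 lay lower without passing (9.84 and 5.38 TPM in YAP5SA against 12.2 and 11.2 TPM in YAP5SA-S94A, log2 fold change −0.61, limma adjusted p = 0.112). With the block on replicate number it passed as lower (limma adjusted p = 0.0235), and without YAP5SA replicate 1 its log2 fold change was −0.99. Leaving out YAP5SA-S94A replicate 1 (log2 fold change 0.43) or 2 (0.39) ended the call of Pdlim5, although the difference itself hardly moved. Omitting the expression filter (limma adjusted p = 0.0718 and 0.0744) or the intensity trend (0.0866 and 0.0627) ended the calls of Pdlim5 and Pdlim7. Ldb3 held 24.4% and 24.0% of the family's TPM in YAP5SA, against 31.1% and 32.5% in YAP5SA-S94A. Myoz2 was nearly the only calsarcin, at 99.6% or more of myozenin TPM in every library.

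The exact permutation test gave two-sided p = 0.333, the smallest possible, for 9 of 10 ratios and shares, and 0.667 for the Myoz2 share (0.370 and 0.667 after Benjamini-Hochberg adjustment). The groups did not overlap in those 9, which with 2 libraries a form says the same as that p. Some of these ratios share a gene, and the groups did not overlap in 68.2% of all genes tested.

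**Figure D3:**
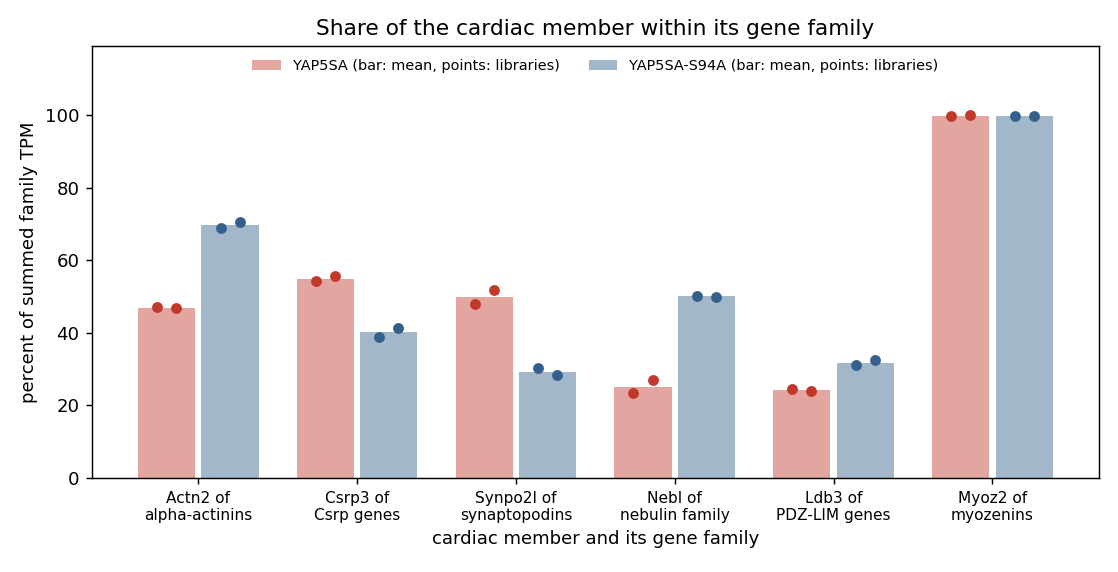
Share of each cardiac gene in the summed TPM of its gene family, in percent; bars are means and points the 2 libraries of YAP5SA (red, left) and YAP5SA-S94A (blue, right). Csrp3 and Synpo2l hold larger shares in YAP5SA, Actn2, Nebl and Ldb3 smaller ones, and Myoz2 holds over 99% in both.

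Other Z-disc genes moved in both directions. Of 24 listed, 22 were tested, 6 rose and 9 fell (median log2 fold change −0.23). Lmcd1, a LIM protein that restrains GATA factors, stood at 97.0 and 96.3 TPM in YAP5SA against 26.3 and 26.6 TPM in YAP5SA-S94A (log2 fold change 1.83). Fhl1, a LIM protein of stress signalling at titin, rose by 1.43, to 653 ± 85.0 against 241 ± 0.865 TPM (SD, n = 2 each). The small heat shock gene Cryab rose by 1.70, but it overlaps the expressed gene Hspb2 on the opposite strand and its value is uncertain. Trim63, which encodes the muscle ubiquitin ligase MuRF1, fell by 1.46 on the log2 scale (87.2 ± 1.44 against 241 ± 4.11 TPM).

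**Figure D4:**
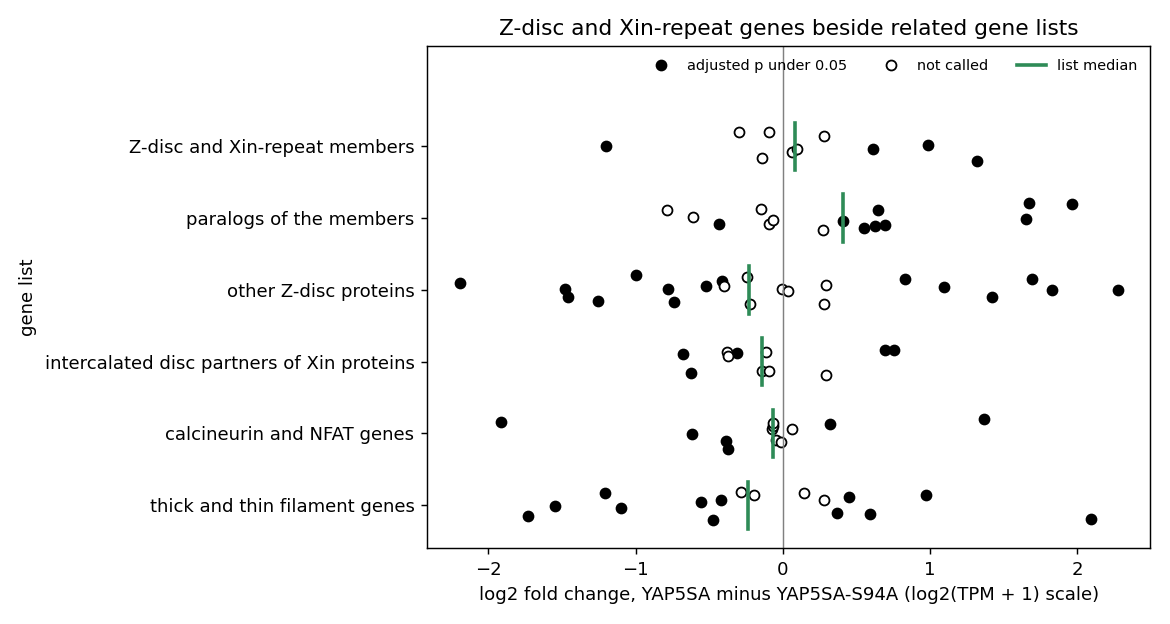
Log2 fold change of every tested gene of 6 lists, YAP5SA minus YAP5SA-S94A; filled points passed the test, open points did not, and green bars are list medians. The median of the 10 genes is 0.081, that of their paralogs 0.41 and that of the other Z-disc proteins −0.23.

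Genes whose products meet Xin proteins at the intercalated disc also moved both ways. Of 11 tested, 2 rose and 3 fell (median −0.14). With YAP5SA replicate 1 left out 6 fell, and with YAP5SA-S94A replicate 1 or 2 left out 1 fell. Vinculin (Vcl), which links adhesions to actin, stood at 269 ± 6.02 TPM in YAP5SA against 159 ± 3.46 TPM in YAP5SA-S94A (log2 fold change 0.75). Enah, which extends actin filaments and is the mammalian Mena, rose by 0.69. Ctnna1, alpha-catenin, fell by 0.68 on the log2 scale (323 ± 6.16 against 518 ± 15.2 TPM). Its cardiac relative Ctnna3 fell by 0.62 with a limma adjusted p = 0.00953. Leaving out YAP5SA-S94A replicate 1 (log2 fold change −0.64) or 2 (−0.60) ended that call, although the difference itself hardly moved.

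Calsarcins bind calcineurin at the Z-disc, and 12 genes of calcineurin and NFAT were read beside Myoz2. Of these 2 rose and 4 fell (median −0.063). With YAP5SA-S94A replicate 1 or 2 left out, 1 rose and 1 fell, and the calls of Rcan2 and Nfat5 were among those lost. Rcan1, a calcineurin inhibitor that is itself an NFAT target, stood at 140 ± 8.70 TPM in YAP5SA against 53.6 ± 2.60 TPM in YAP5SA-S94A (log2 fold change 1.37). Nfatc2, a calcineurin-activated transcription factor, stood at 2.47 ± 0.297 against 12.1 ± 0.547 TPM (−1.91).

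Of 16 thick and thin filament genes, 6 of them shared with the cardiomyocyte markers, 5 rose and 7 fell (median −0.24), and 2 rose without YAP5SA-S94A replicate 2. Those with the smallest p all fell: Myh6, Tnni3, Myl7 and Mybpc3. Myh6 encodes the alpha myosin heavy chain (log2 fold change −1.73) and Tnni3 cardiac troponin I (−1.55). Mybpc3, cardiac myosin-binding protein C, stood at 744 and 573 TPM in YAP5SA against 1520 and 1495 TPM in YAP5SA-S94A. Myl7, the atrial regulatory light chain, stood at 75.7 ± 6.85 against 163 ± 5.55 TPM (SD, n = 2 each). The level of the 10 Z-disc and Xin-repeat genes relative to the cardiomyocyte markers was 17.6% in both YAP5SA libraries, against 12.4% and 12.8% in YAP5SA-S94A. No test was made of that share, and the marker sum is carried mostly by Tnnt2 and Actc1.

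**Figure D5:**
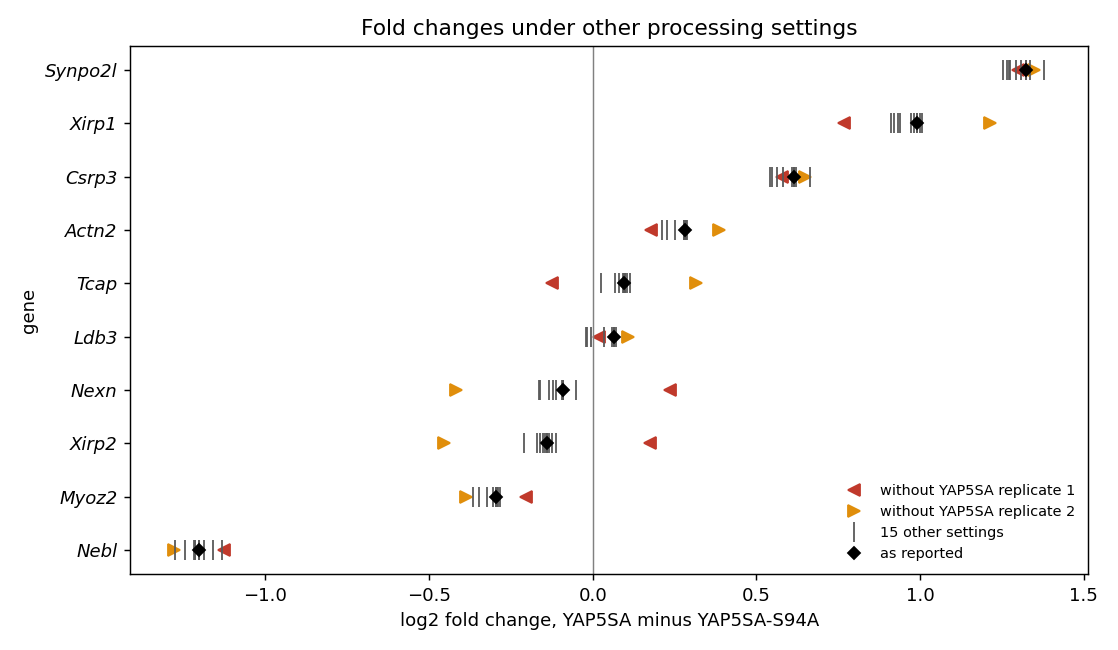
Log2 fold change of each gene as reported (diamond), with either YAP5SA library left out (triangles) and in 15 other settings (ticks). Synpo2l, Xirp1, Csrp3 and Nebl keep their side of 0 in all of these, while the triangles of Tcap, Nexn and Xirp2 lie on opposite sides of 0. The sides of the triangles follow from whether the groups overlap in TPM.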

How the data were processed

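Gene tables of 4 RNA-seq libraries were used. Per the labels' protocols, mRNA was captured on poly-T beads and strand was kept in the libraries. Build rn7, StringTie 2.2.1, HISAT2 2.2.1, fastp and R 4.3.1 appear in the submitters' processing notes; the settings, the annotation and the use of strand are not given in the sources used here. TPM and FPKM were computed by the authors, 1 table per library with 40903 entries. The Coverage signal, per the file headers, is reads per base and is not scaled for depth. Its highest ratio to FPKM gave the aligned bases. No count model was run.

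TPM was summed over entries sharing a name; each of the 10 genes had 1 entry. In R 4.3.3, limma 3.58.1 was fitted to log2(TPM + 1) of the 13420 genes whose mean TPM reached 1. It used its intensity trend, 2 residual degrees of freedom and 5.09 prior ones, and p-values were Benjamini-Hochberg adjusted over all of them, with calls under 0.05. The fit was also run on simulated data with known changes. Those changes were larger than the differences of Actn2, Myoz2 and Csrp3, so the simulation does not cover differences of that size. The log2 scale with a pseudocount understates changes of low genes. Overlap with entries on the opposite strand concerned Xirp1 (LOC120094294, 0.24 TPM) and Nexn (Tmem256-ps2, 0.972 TPM). Promoters are from RefSeq, build GRCr8. Alternatives changed the pseudocount, filter, unit, scaling, variance model or threshold, blocked on replicate number, kept the row of highest TPM only, left out each library, or, chosen after seeing the data, rescaled the Coverage column. The named genes are the 10, their paralogs, and per related list up to 4 that passed with the smallest p. All filament genes that rose are named too. The genes and lists were chosen with earlier results of these data known. Tables and figures were made with matplotlib 3.10.9, numpy 2.4.6 and pandas 2.3.3 under Python 3.11.15.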

Additional observations from a re-analysis of the deposited data

How the results depend on the processing

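Synpo2l, Xirp1, Csrp3 and Nebl kept their direction in all 17 refits and passed in every refit that kept 2 libraries per form. Their log2 fold changes were 1.25 to 1.38, 0.77 to 1.21, 0.54 to 0.66 and −1.28 to −1.13. Since their groups did not overlap, most refits could not turn the direction. Only the changes of unit or scaling could have done so. The numbers that rose and fell depended on the library left out and were highest without YAP5SA replicate 2. There Xirp2 (−0.45), Nexn (−0.42), Tcap (0.32), Actn2 (0.39) and Myoz2 (−0.39) lay further from 0 than with all libraries. That fit holds a single YAP5SA library. Along with Nebl, Myoz2 fell (2 in all) at a mean TPM of 5 or more, FPKM, quantile normalization, the mitochondrial chromosome left out, and the replicate block, where 4 rose, Actn2 among them. The titles share replicate numbers; across genes, the gaps between replicates 1 and 2 of the forms correlated at 0.101, and with 2 pairs the numbers were not taken as pairing. The library names number the YAP5SA libraries 3 and 4 and the YAP5SA-S94A libraries 4 and 5, so the shared number there joins YAP5SA replicate 2 to YAP5SA-S94A replicate 1, and the block on title numbers may not reflect a shared isolation. The block called 2726 genes higher and 2593 lower. Signs turned for Ldb3 with quantile normalization (−0.020), without the mitochondrial chromosome (−0.0066) and with rescaled Coverage (−0.0163), and the cause was not tested. They also turned for Xirp2 (0.17), Tcap (−0.12) and Nexn (0.23) without YAP5SA replicate 1. For Synpo2 the sign turned without replicate 2 (0.049, and −0.17 without replicate 1). In Xirp2, Tcap, Nexn and Synpo2 the YAP5SA values lay on either side of both YAP5SA-S94A values. Their sign without either YAP5SA library was therefore fixed by that overlap. Over all genes, the counts were 1439 higher and 1046 lower at an adjusted p under 0.01, by construction, and 1700 to 2610 higher and 1312 to 2739 lower with 1 library left out, where the lone library of a form is assumed to vary like the others. With 2 libraries a form, differences as small as those of Actn2 and Myoz2 lie at the edge of what these data resolve.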

Other observations

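Ratios among the Z-disc transcripts were also read in each library. Actn2 stood at 12.2 and 9.52 times the TPM of Nebl in YAP5SA, against 3.86 and 3.79 times in YAP5SA-S94A. Actn2 stood at 1.25 and 0.951 times the TPM of Myoz2 in YAP5SA, against 0.734 and 0.725 times in YAP5SA-S94A, so that alpha-actinin was the more abundant of the pair in YAP5SA replicate 1 alone. Csrp3 stood at 4.72 and 6.12 times the TPM of its partner Tcap in YAP5SA, against 3.67 and 3.84 times in YAP5SA-S94A. In none of these ratios did the groups overlap, and each exact permutation test gave two-sided p = 0.333, the smallest possible. That p and the lack of overlap are the same fact with 2 libraries a form.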
